A study of Setaria viridis with 15 samples.

Results

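Chitinases and beta-1,3-glucanases are the enzymes with which plants cut the main wall polymers of fungi. Chitinases hydrolyse chitin, a chain of N-acetylglucosamine that plants do not make. Beta-1,3-glucanases, annotated as glucan endo-1,3-beta-glucosidases, hydrolyse the beta-1,3-glucan of fungal and oomycete walls and also callose, the plant's own beta-1,3-glucan in plasmodesmata, cell plates and pollen. Both families include pathogenesis-related (PR) proteins, and other members act in growth. The genes described here were chosen by annotated name: a gene with a name entry containing "chitinase" or "glucan endo-1" was a member. There were 82 members, 34 chitinases and 48 beta-1,3-glucanases, among 28032 genes in the count table, 23214 of them with a name.

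All plants were wild-type Setaria viridis, a small C4 grass, and the tissue was the shoot. A pair of 5-day seedlings grew on a large plate that also held a small separate dish, so that bacteria in the dish and plants shared air but not medium. The sealed plates stood for 7 days, and the tests asked how shoot transcripts respond to bacterial volatiles, with each treatment set against each other one. There were 4 libraries with isolate AI2.2-A in the dish, 3 with CTB P6B8, 4 with MTS P5D6 and 4 Control libraries with a dish that held no bacteria. The labels call them biological replicates but do not say how many plates entered each, so the spread behind every p-value is that between libraries.

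Total counts ran between 18222557 and 23919167 per AI2.2-A library, 17118899 and 25123025 per CTB P6B8 library, 16755755 and 19453085 per MTS P5D6 library and 13852517 and 20556455 per Control library. On the second principal component of all genes (24.5% of the variance), AI2.2-A replicate 4 lay at 21.2, outside the 45.6 to 54.3 of the other AI2.2-A libraries. On the first (40.8%), MTS P5D6 replicate 2 lay at 25.5, outside the 39.4 to 47.7 of the other MTS P5D6 libraries. A list of 30 shoot markers, of photosynthesis and the C4 cycle, summed to 20680 to 27020 CPM in AI2.2-A libraries, 18330 to 23100 CPM in CTB P6B8 libraries, 17270 to 19870 CPM in MTS P5D6 libraries and 26320 to 33950 CPM in Control libraries, and none of the 30 was at 0 in all libraries. CPM is a gene's count scaled to its library's total, with TMM factors between libraries. The labelled tissue was thus present throughout. The marker sum lay below all Control libraries beside CTB P6B8 and MTS P5D6, while AI2.2-A libraries overlapped Control. The marker list was drawn by name and also holds a housekeeping phosphoenolpyruvate carboxylase and kinases of that enzyme. Single genes of the list went both ways in the test described below. Of 29 tested, 9 were higher and 6 lower beside AI2.2-A. Beside CTB P6B8 the numbers were 8 and 9, and beside MTS P5D6 8 and 15. In the same order, 23.4%, 22.6% and 23.9% of all genes were higher and 24.3%, 22.7% and 28.3% lower. A list of 6 root markers summed to 84.2 to 151 CPM in AI2.2-A libraries, 122 to 181 CPM in CTB P6B8 libraries, 69.6 to 124 CPM in MTS P5D6 libraries and 166 to 186 CPM in Control libraries. The part of these shifts in the results below was not tested. In whole shoots, fewer cells of a type and less RNA per cell cannot be told apart.

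Chitinase transcripts together took a larger share of the library beside each isolate. The 34 chitinases summed to 1829.7 to 2199 CPM in AI2.2-A libraries, 2024 to 3852 CPM in CTB P6B8 libraries, 1438 to 2352 CPM in MTS P5D6 libraries and 746 to 803 CPM in Control libraries. No isolate library overlapped Control. The ratio of group means to Control was 2.64 beside AI2.2-A, 3.47 beside CTB P6B8 and 2.71 beside MTS P5D6. The 48 beta-1,3-glucanases summed to 1101 to 1292 CPM in AI2.2-A libraries, 1196 to 1627 CPM in CTB P6B8 libraries, 986 to 1358 CPM in MTS P5D6 libraries and 813 to 873 CPM in Control libraries, again without overlap. Their ratio of means was 1.43 beside AI2.2-A, 1.59 beside CTB P6B8 and 1.4 beside MTS P5D6. These sums are descriptions, with no test, because the members were chosen with earlier results of these data known.

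CTB P6B8 replicate 2 was the highest of its group for 18 of the 25 chitinases that could be tested and for 27 of the 47 glucanases. Without it, the CTB P6B8 ratio to Control was 2.71 for chitinases and 1.44 for glucanases. MTS P5D6 replicate 2 was the lowest of its group for 18 chitinases and 21 glucanases.

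**Figure D1:**
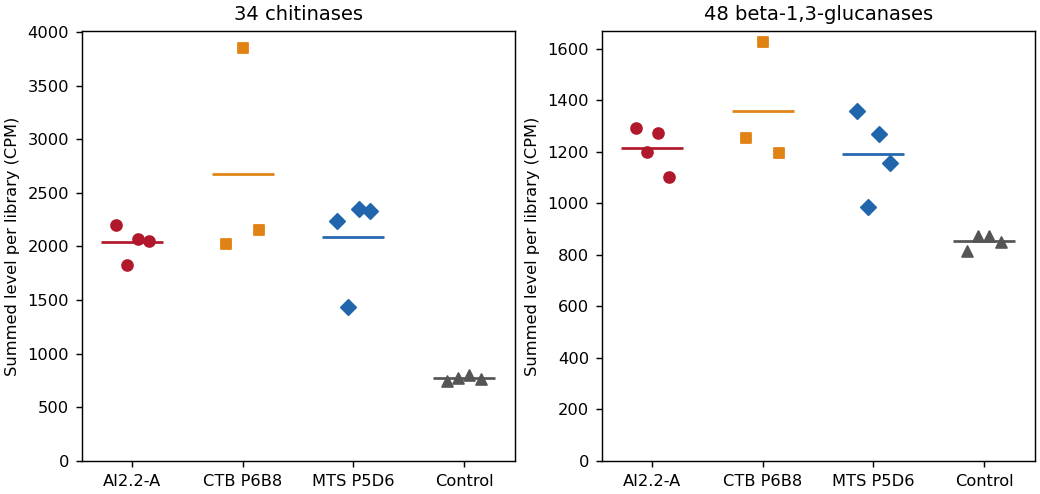
Summed level of each family in each library (CPM, linear axis from 0), with 1 point per library and a line at the group mean. All isolate libraries lie above all Control libraries in both panels, and CTB P6B8 replicate 2 is the highest point, at 3852 CPM for chitinases and 1627 CPM for beta-1,3-glucanases.

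Most tested chitinases rose beside each isolate. Beside AI2.2-A, 17 of 25 rose (68%) and 0 fell in edgeR's quasi-likelihood test, where 47.7% of all 20310 tested genes were called and 23.4% were called higher. A call is an adjusted p under 0.05. At an unadjusted p under 0.05 the count that fell was also 0, DESeq2 called 17 higher and 0 lower, and limma-voom called 18 higher and 1 lower. Beside CTB P6B8, 18 chitinases rose (72%) and 1 fell, where 45.4% of all genes were called and 22.6% were called higher. Beside MTS P5D6, 17 rose (68%) and 1 fell, where 52.2% of all genes were called and 23.9% were called higher. The 3 comparisons share their Control libraries.

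Many of these increases were large. The median log2 fold change of the tested chitinases was 1.04 beside AI2.2-A, 1.43 beside CTB P6B8 and 1.17 beside MTS P5D6, and that of all genes was -0.0047 beside AI2.2-A, 0.0025 beside CTB P6B8 and -0.051 beside MTS P5D6. Called increases of at least 2-fold numbered 13 beside AI2.2-A, 15 beside CTB P6B8 and 14 beside MTS P5D6, where 8.08% beside AI2.2-A, 8.56% beside CTB P6B8 and 8.42% beside MTS P5D6 passed among all genes.

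Glucanases moved in both directions. Of 47 tested, 14 rose and 7 fell beside AI2.2-A, 19 rose and 4 fell beside CTB P6B8, and 13 rose and 10 fell beside MTS P5D6. Those that rose were 29.8% beside AI2.2-A, 40.4% beside CTB P6B8 and 27.7% beside MTS P5D6, where the share of all genes called higher was 23.4% beside AI2.2-A, 22.6% beside CTB P6B8 and 23.9% beside MTS P5D6. Those that fell were 14.9% beside AI2.2-A, 8.51% beside CTB P6B8 and 21.3% beside MTS P5D6, where the share of all genes called lower was 24.3% beside AI2.2-A, 22.7% beside CTB P6B8 and 28.3% beside MTS P5D6. The share that rose was thus near that of all genes beside AI2.2-A or MTS P5D6 and above it beside CTB P6B8. Without CTB P6B8 replicate 2, 17 glucanases were called in either direction beside CTB P6B8, in place of 23. Over the other scalings, filters, tests and left-out libraries, 13 to 21 rose there. The share that fell was below that of all genes beside AI2.2-A or CTB P6B8 and near it beside MTS P5D6. Their median log2 fold change was 0.13 beside AI2.2-A, 0.33 beside CTB P6B8 and 0.07 beside MTS P5D6, and 7 beside AI2.2-A, 7 beside CTB P6B8 and 8 beside MTS P5D6 were called at least 2-fold higher. Without AI2.2-A replicate 4, 18 glucanases rose and 6 fell beside AI2.2-A, and 17 chitinases rose and 1 fell.

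Scaling by total counts alone shifted the median of all genes to 0.127 beside AI2.2-A, 0.103 beside CTB P6B8 and -0.0186 beside MTS P5D6. The share of all calls that were higher was then 67.6% beside AI2.2-A, 63.8% beside CTB P6B8 and 49.4% beside MTS P5D6, in place of 49% beside AI2.2-A, 49.9% beside CTB P6B8 and 45.7% beside MTS P5D6. With that scaling 18 glucanases rose and 4 fell beside AI2.2-A, 21 rose and 3 fell beside CTB P6B8, and 13 rose and 10 fell beside MTS P5D6. Chitinases that rose then numbered 19 beside AI2.2-A, 21 beside CTB P6B8 and 17 beside MTS P5D6. The tested members include 6 that reached the filter's 0.523 CPM in fewer than 3 Control libraries, so that they passed mainly through isolate libraries. The other 10 members, 9 of them chitinases, were too low to test. The counts above are therefore over tested members and are descriptions.

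**Figure D2:**
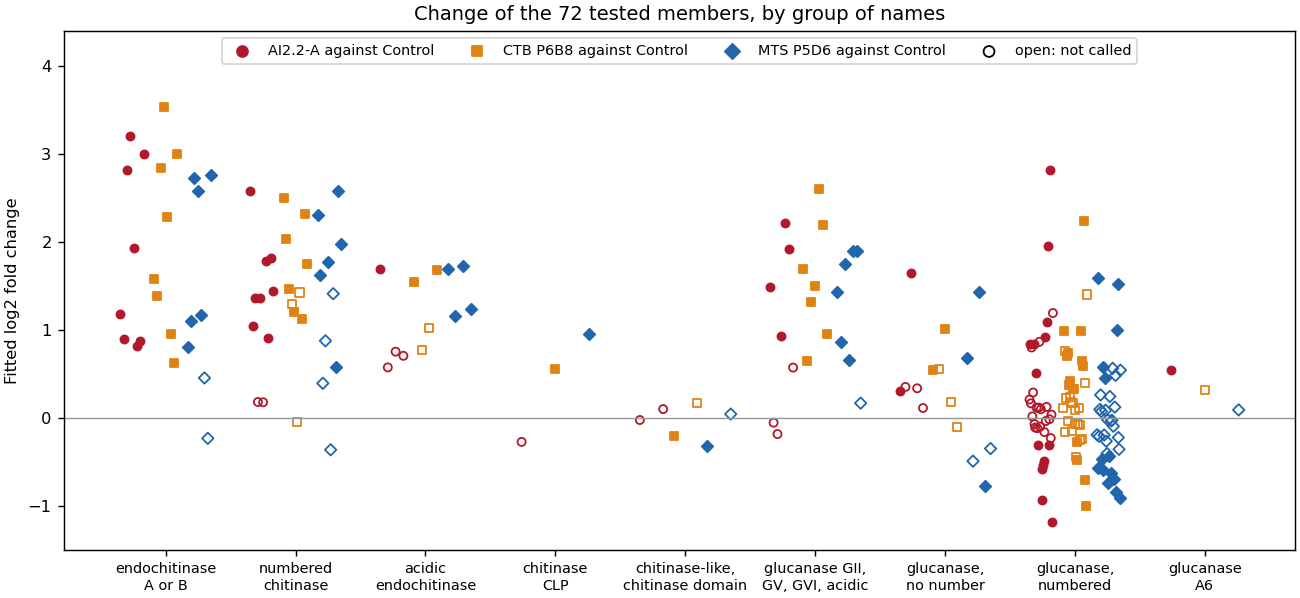
Fitted log2 fold change of each of the 72 tested members against Control (vertical axis), grouped by annotated name, with filled symbols for called and open symbols for uncalled values. Endochitinases A and B reach 3.54 and hold no called decrease, while numbered glucanases spread from -1.18 to 2.82.

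The largest fitted increases among chitinases were in endochitinases A and B, 8 genes that stand side by side in the RefSeq gene table of assembly Setaria_viridis_v4.0 with 0 other protein-coding genes between them. The names are those of maize seed chitinases, which inhibit fungal growth. All 8 rose beside AI2.2-A, all 8 beside CTB P6B8 and 6 (75%) beside MTS P5D6, where 23.4%, 22.6% and 23.9% of all genes were called higher. Summed over the 8, the level averaged 1159 ± 109.7 CPM with AI2.2-A (SD, n = 4), 1465 ± 541 CPM for CTB P6B8 (SD, n = 3), 986 ± 199 CPM for MTS P5D6 (SD, n = 4) and 373 ± 31.2 CPM in Control (SD, n = 4). Without CTB P6B8 replicate 2, the CTB P6B8 mean was 1156 CPM. How reads that match several genes were counted is not stated in the labels, so neighbouring copies of similar sequence may share or lose counts.

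Endochitinase A-like (LOC117863103) had 196, 171, 125 and 192 CPM in AI2.2-A libraries, 179, 282 and 185 CPM in CTB P6B8 libraries, 139, 78, 133 and 91.8 CPM in MTS P5D6 libraries, and 15.7, 15.3, 23.1 and 20.2 CPM in Control libraries. The isolate libraries lay far above Control. Its change was 3.21 ± 0.22 beside AI2.2-A, 3.54 ± 0.23 beside CTB P6B8 and 2.58 ± 0.22 beside MTS P5D6 (fitted log2 fold change ± SE, as for all values with ± and no unit below). Endochitinase B-like (LOC117865012) was low in Control. It had 19.7, 15.4, 7.39 and 12.9 CPM in AI2.2-A libraries, 11, 24.1 and 7.31 CPM in CTB P6B8 libraries, 16.2, 10.0, 12.4 and 8.82 CPM in MTS P5D6 libraries, and 1.35, 2.88, 1.3 and 1.29 CPM in Control libraries. Isolate and Control libraries did not overlap, and it changed by 3.00 ± 0.41 beside AI2.2-A, 3.00 ± 0.43 beside CTB P6B8 and 2.77 ± 0.42 beside MTS P5D6. Endochitinase A-like (LOC117863036) had 312, 193, 148 and 190.4 CPM in AI2.2-A libraries, 151, 316 and 176 CPM in CTB P6B8 libraries, 191, 157, 252 and 194 CPM in MTS P5D6 libraries, and 38.2, 24.2, 30.4 and 27.1 CPM in Control libraries. Its increases were close to each other: 2.82 ± 0.26 beside AI2.2-A, 2.84 ± 0.27 beside CTB P6B8 and 2.73 ± 0.26 beside MTS P5D6.

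Endochitinase A-like (LOC117862466) changed less. It had 291, 321, 408 and 337 CPM in AI2.2-A libraries, 360.1, 621 and 449 CPM in CTB P6B8 libraries, 391, 237, 453 and 474 CPM in MTS P5D6 libraries, and 179, 169, 194 and 184 CPM in Control libraries. All isolate libraries lay above Control, with 0.90 ± 0.19 beside AI2.2-A, 1.39 ± 0.20 beside CTB P6B8 and 1.10 ± 0.19 beside MTS P5D6. Endochitinase A-like (LOC117863108) had 343, 232, 240.1 and 262 CPM in AI2.2-A libraries, 216, 564 and 259 CPM in CTB P6B8 libraries, 182, 133, 155 and 166 CPM in MTS P5D6 libraries, and 79, 57.1, 74.9 and 72.1 CPM in Control libraries. It rose by 1.93 ± 0.24 beside AI2.2-A, 2.29 ± 0.25 beside CTB P6B8 and 1.17 ± 0.23 beside MTS P5D6. Between isolates it was higher with CTB P6B8 than with MTS P5D6 (1.12 ± 0.24, or 0.58 without CTB P6B8 replicate 2) and higher with AI2.2-A than with MTS P5D6 (0.76 ± 0.23). Endochitinase A-like (LOC117862464) rose by 1.18 ± 0.20 beside AI2.2-A, 1.58 ± 0.21 beside CTB P6B8 and 0.80 ± 0.20 beside MTS P5D6. Its MTS P5D6 replicate 2, at 65.1 CPM, lay within the Control range of 49.4 to 67 CPM.

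The remaining 2 genes of the block were called beside AI2.2-A and beside CTB P6B8 but not beside MTS P5D6. Endochitinase A-like (LOC117864468) had 23.2, 16.2, 18.8 and 15.5 CPM in AI2.2-A libraries, 16.3, 30.9 and 13.9 CPM in CTB P6B8 libraries, 14.4, 12.7, 14.5 and 15.6 CPM in MTS P5D6 libraries, and 8.77, 10.9, 11.4 and 10.7 CPM in Control libraries. Its isolate libraries did not overlap Control, with changes of 0.82 ± 0.20 beside AI2.2-A, 0.96 ± 0.22 beside CTB P6B8 and 0.45 ± 0.21 beside MTS P5D6. Without CTB P6B8 replicate 2, the CTB P6B8 change was 0.53. Endochitinase B-like (LOC117865011) had 2.99, 4.36, 3.8 and 3.17 CPM in AI2.2-A libraries, 3.85, 2.3 and 2.82 CPM in CTB P6B8 libraries, 1.7, 1.36, 1.91 and 1.66 CPM in MTS P5D6 libraries, and 1.96, 1.36, 2.37 and 2.17 CPM in Control libraries. AI2.2-A libraries lay above Control, and the other isolates overlapped it, with changes of 0.87 ± 0.21 beside AI2.2-A, 0.62 ± 0.22 beside CTB P6B8 and -0.23 ± 0.22 beside MTS P5D6. This gene was higher with AI2.2-A than with MTS P5D6 (1.10 ± 0.21, edgeR adjusted p = 0.000547). Its CTB P6B8 call against Control was lost without CTB P6B8 replicate 1 (0.40), Control replicate 1 (0.62) or Control replicate 2 (0.47). Its CTB P6B8 call against MTS P5D6 (0.85 ± 0.22) was lost without CTB P6B8 replicate 1 (0.63).

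**Figure D3:**
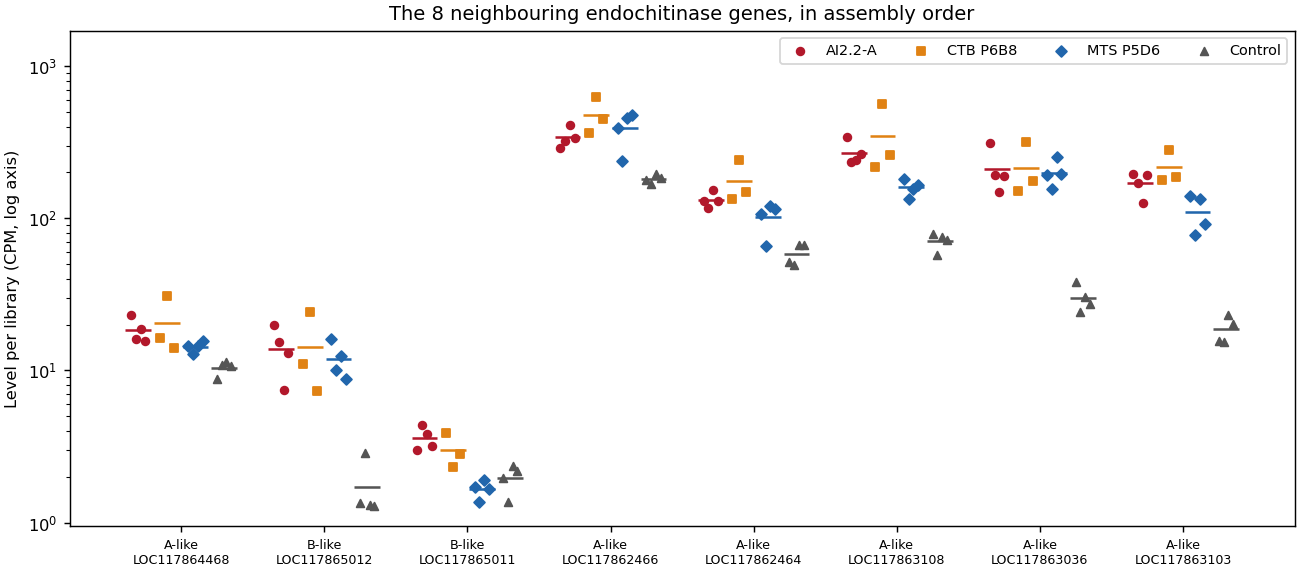
Level of each of the 8 neighbouring endochitinase genes in each library (CPM, log axis), with genes in their order along the assembly, 1 point per library and a line at each group mean. LOC117863103, LOC117863036 and LOC117865012 show isolate libraries far above Control, and LOC117865011 shows MTS P5D6 overlapping Control.

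Chitinases with a number in the name rose in 8 of 10 tested cases beside AI2.2-A, 7 beside CTB P6B8 and 6 beside MTS P5D6. These are 80%, 70% and 60%, where 23.4%, 22.6% and 23.9% of all genes were called higher. The 8 include chitinase 10-like LOC117847079, which reached the count filter's level in 0 Control libraries and was tested only through isolate libraries. Chitinase 8-like (LOC117836616) had 277, 217, 341 and 270.2 CPM in AI2.2-A libraries, 339, 1015 and 299 CPM in CTB P6B8 libraries, 456, 245, 428 and 529.9 CPM in MTS P5D6 libraries, and 129, 146, 135 and 127 CPM in Control libraries. Every isolate library lay above Control, and CTB P6B8 replicate 2 stood far above the other libraries of its group. It rose by 1.04 ± 0.31 beside AI2.2-A, 2.04 ± 0.33 beside CTB P6B8 and 1.63 ± 0.31 beside MTS P5D6, and by 1.25 beside CTB P6B8 without that replicate. The difference of AI2.2-A from CTB P6B8 (-1.0 ± 0.33) was not called (edgeR adjusted p = 0.0611).

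A pair of neighbouring chitinase 2-like genes rose beside all isolates. LOC117866657 had 141, 131, 188 and 176 CPM in AI2.2-A libraries, 156, 249 and 187 CPM in CTB P6B8 libraries, 241, 158, 241 and 281 CPM in MTS P5D6 libraries, and 52.1, 58.3, 61.7 and 61.7 CPM in Control libraries. No isolate library overlapped Control, and the gene rose by 1.44 ± 0.17 beside AI2.2-A, 1.75 ± 0.18 beside CTB P6B8 and 1.98 ± 0.17 beside MTS P5D6. AI2.2-A lay below MTS P5D6 (-0.53 ± 0.17), a call lost without MTS P5D6 replicate 4 (-0.42). Its neighbour LOC117833954 had 155, 126, 157 and 147 CPM in AI2.2-A libraries, 130.3, 144 and 141 CPM in CTB P6B8 libraries, 132, 84.8, 141 and 124 CPM in MTS P5D6 libraries, and 21.5, 22.9, 28.4 and 24.7 CPM in Control libraries. The groups again did not overlap Control, with 2.59 ± 0.14 beside AI2.2-A, 2.51 ± 0.14 beside CTB P6B8 and 2.31 ± 0.14 beside MTS P5D6.

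In another neighbouring pair of chitinase 2-like genes, 1 gene was called and the other was not. LOC117840175 had 10.1, 11, 8.48 and 11.2 CPM in AI2.2-A libraries, 11.1, 6.39 and 9.82 CPM in CTB P6B8 libraries, 19, 11.7, 14.7 and 8.94 CPM in MTS P5D6 libraries, and 4.18, 5, 3.51 and 3.1 CPM in Control libraries. It rose by 1.37 ± 0.23 beside AI2.2-A, 1.21 ± 0.24 beside CTB P6B8 and 1.78 ± 0.23 beside MTS P5D6. Its neighbour LOC117840177 had 2.75, 2.75, 2.55 and 1.92 CPM in AI2.2-A libraries, 2.37, 1.84 and 2.16 CPM in CTB P6B8 libraries, 2.03, 1.47, 1.7 and 1.66 CPM in MTS P5D6 libraries, and 2.23, 2.01, 2.21 and 2.38 CPM in Control libraries. No call was made against it, while AI2.2-A was higher than MTS P5D6 (0.54 ± 0.17), a call lost without AI2.2-A replicate 1 (0.49). The difference between the 2 genes was not tested.

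Chitinase 6-like (LOC117860912) was low in Control and rose beside each isolate. It had 2.63, 3.21, 3.17 and 2.26 CPM in AI2.2-A libraries, 3.45, 4.66 and 3.83 CPM in CTB P6B8 libraries, 4.55, 2.5, 7.02 and 4.93 CPM in MTS P5D6 libraries, and 0.54, 0.707, 1.53 and 0.517 CPM in Control libraries. The isolate libraries did not overlap Control, and it changed by 1.82 ± 0.34 beside AI2.2-A, 2.32 ± 0.35 beside CTB P6B8 and 2.58 ± 0.34 beside MTS P5D6. Chitinase 1 (LOC117851858) had 60.1, 37.1, 50.9 and 37.7 CPM in AI2.2-A libraries, 40.9, 70.1 and 50.9 CPM in CTB P6B8 libraries, 45.4, 23.2, 32.5 and 46.6 CPM in MTS P5D6 libraries, and 23.7, 30.6, 24.4 and 20.0 CPM in Control libraries. It rose by 0.91 ± 0.22 beside AI2.2-A, 1.13 ± 0.24 beside CTB P6B8 and 0.58 ± 0.23 beside MTS P5D6. AI2.2-A and CTB P6B8 libraries lay above all Control libraries, and MTS P5D6 replicate 2 lay at the Control level. The MTS P5D6 call was lost at 0.45 to 0.57 without Control replicates 1, 3 or 4 or MTS P5D6 replicates 1 or 4.

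Of 2 neighbouring chitinase 11-like genes, LOC117839001 had 8.5, 5.23, 5.88 and 7.2 CPM in AI2.2-A libraries, 7.7, 7.83 and 6.11 CPM in CTB P6B8 libraries, 3.95, 1.36, 5.62 and 2.71 CPM in MTS P5D6 libraries, and 1.89, 4.62, 1.91 and 1.86 CPM in Control libraries. It rose by 1.36 ± 0.35 beside AI2.2-A and 1.46 ± 0.37 beside CTB P6B8. Control replicate 2 stood apart from its group but below the libraries of those isolates. The neighbour LOC117839002 overlapped Control in each group and was not called, with 0.758 to 1.73 CPM in AI2.2-A libraries, 0.928 to 4.2 CPM in CTB P6B8 libraries, 0.707 to 2.73 CPM in MTS P5D6 libraries and 0.534 to 2.01 CPM in Control libraries. Chitinase 10-like (LOC117847079) had at most 1.05 CPM in any library and passed the count filter through isolate libraries alone, so its changes are descriptions. Its value was called beside AI2.2-A (1.78 ± 0.65), but not without AI2.2-A replicates 1 or 3 or Control replicates 1, 3 or 4 (1.42 to 1.79). Without Control replicate 2 the value was 2.93.

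Acidic endochitinase-like (LOC117854950), whose Arabidopsis namesake is secreted, had 129, 115, 112 and 139 CPM in AI2.2-A libraries, 131, 126 and 79.5 CPM in CTB P6B8 libraries, 144, 73.2, 172 and 104 CPM in MTS P5D6 libraries, and 30.0, 58.9, 30.8 and 32.5 CPM in Control libraries. The isolate libraries lay above Control, where replicate 2 stood apart. It rose by 1.69 ± 0.25 beside AI2.2-A, 1.55 ± 0.27 beside CTB P6B8 and 1.69 ± 0.25 beside MTS P5D6. A run of 3 neighbouring acidic endochitinase-like genes was low in every group and called beside MTS P5D6. LOC117857895 rose there by 1.16 ± 0.30, with 1.87 to 4.09 CPM in AI2.2-A libraries, 3 to 3.97 CPM in CTB P6B8 libraries, 2.69 to 7.17 CPM in MTS P5D6 libraries and 1.28 to 2.5 CPM in Control libraries. LOC117858397 had a change of 1.73 ± 0.55, and MTS P5D6 replicate 3 stood at 3.04 CPM, against 0.27 to 0.569 CPM in Control. Without that replicate the value was 0.77 and the call was lost. LOC117858398 had a change of 1.24 ± 0.32 beside MTS P5D6 and of 1.68 ± 0.32 beside CTB P6B8, with 0.413 to 0.676 CPM in AI2.2-A libraries, 0.691 to 1.55 CPM in CTB P6B8 libraries, 0.671 to 0.87 CPM in MTS P5D6 libraries and 0.259 to 0.382 CPM in Control libraries. Its isolate libraries did not overlap Control, but no Control library reached the count filter's level, so the gene was tested only because it was high beside isolates and its changes are descriptions. LOC117858397 reached that level in 1 Control library.

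Chitinase CLP-like (LOC117855198) differed by isolate. It had 27.9, 44.2, 30.0 and 50.3 CPM in AI2.2-A libraries, 62.5, 75.6 and 64.8 CPM in CTB P6B8 libraries, 82.6, 81.4, 92.4 and 100.3 CPM in MTS P5D6 libraries, and 40.7, 50.1, 46.1 and 47 CPM in Control libraries. All MTS P5D6 and CTB P6B8 libraries lay above Control, and the AI2.2-A libraries lay on both sides of the Control range. The change was -0.27 ± 0.15 beside AI2.2-A, 0.56 ± 0.16 beside CTB P6B8 and 0.95 ± 0.15 beside MTS P5D6, of which the AI2.2-A value was not called. AI2.2-A was below MTS P5D6 (-1.23 ± 0.15) and below CTB P6B8 (-0.83 ± 0.16).

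Chitinase-like protein 1 (LOC117843843), whose Arabidopsis relative acts in cellulose deposition, fell slightly beside MTS P5D6 (-0.32 ± 0.08). It had 17.9, 18.2, 17.8 and 18.7 CPM in MTS P5D6 libraries, against 23.6, 22, 23.3 and 21.7 CPM in Control libraries, with no overlap. Its CTB P6B8 call (-0.21 ± 0.08) was lost under 6 other settings and without CTB P6B8 replicates 1 or 3 or Control replicates 1, 2 or 3, at -0.11 to -0.23. Chitinase domain-containing protein 1 (LOC117856913) was not called against Control, with 36 to 42.9 CPM in AI2.2-A libraries, 37.4 to 44.6 CPM in CTB P6B8 libraries, 34.6 to 41.3 CPM in MTS P5D6 libraries and 34.4 to 37.5 CPM in Control libraries.

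Among glucanases, 7 carry the names GII, GV, GVI or acidic isoform, used for pathogenesis-related enzymes of cereals and other plants. In edgeR's test 4 (57.1%) beside AI2.2-A, 7 (100%) beside CTB P6B8 and 6 (85.7%) beside MTS P5D6 rose. The share of all genes called higher was 23.4% beside AI2.2-A, 22.6% beside CTB P6B8 and 23.9% beside MTS P5D6. Of the 7, 0 fell beside any isolate, also at an unadjusted p under 0.05. The share of all genes called lower was 24.3% beside AI2.2-A, 22.7% beside CTB P6B8 and 28.3% beside MTS P5D6, and 7 genes are few for such a comparison. The acidic isoform-like gene (LOC117857774) had 35.8, 40.2, 37.4 and 23.5 CPM in AI2.2-A libraries, 45.5, 38.5 and 50.6 CPM in CTB P6B8 libraries, 48.9, 12.9, 30.1 and 18.3 CPM in MTS P5D6 libraries, and 6.75, 4.02, 8.47 and 10.3 CPM in Control libraries. All isolate libraries lay above Control, with 2.21 ± 0.35 beside AI2.2-A, 2.61 ± 0.36 beside CTB P6B8 and 1.90 ± 0.35 beside MTS P5D6. GII-like (LOC117857777) had 29.3, 34.2, 33.5 and 29 CPM in AI2.2-A libraries, 40.4, 53.3 and 21.2 CPM in CTB P6B8 libraries, 37.8, 16.5, 45.7 and 24 CPM in MTS P5D6 libraries, and 7.42, 13.4, 7.4 and 4.86 CPM in Control libraries. It rose by 1.92 ± 0.34 beside AI2.2-A, 2.2 ± 0.35 beside CTB P6B8 and 1.90 ± 0.34 beside MTS P5D6. GII-like (LOC117847171) had 130.5, 125, 148 and 123 CPM in AI2.2-A libraries, 155, 180.2 and 119 CPM in CTB P6B8 libraries, 145, 77.8, 183 and 99.96 CPM in MTS P5D6 libraries, and 38.7, 62, 42.1 and 43.8 CPM in Control libraries. It rose by 1.49 ± 0.22 beside AI2.2-A, 1.70 ± 0.23 beside CTB P6B8 and 1.44 ± 0.22 beside MTS P5D6. In both GII-like genes the isolate libraries did not overlap Control.

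A further GII-like gene (LOC117857773) had 208, 179.9, 222 and 167 CPM in AI2.2-A libraries, 209, 421 and 234 CPM in CTB P6B8 libraries, 181, 93.6, 196 and 171 CPM in MTS P5D6 libraries, and 87.9, 86.6, 121 and 113 CPM in Control libraries. AI2.2-A and CTB P6B8 libraries lay above Control and MTS P5D6 replicate 2 within it. The gene rose by 0.93 ± 0.23 beside AI2.2-A, 1.5 ± 0.24 beside CTB P6B8 and 0.65 ± 0.23 beside MTS P5D6. Its MTS P5D6 call was lost without Control replicates 1 or 2 or MTS P5D6 replicates 1 or 3 (0.54 to 0.59). The difference of CTB P6B8 from MTS P5D6 (0.84 ± 0.24) was lost without CTB P6B8 replicate 2 (0.46). The genes LOC117857773, LOC117857774 and LOC117857777 and the GV-like gene LOC117857769 stand in 1 stretch of the RefSeq gene table, with 14 other protein-coding genes among them.

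GVI gene LOC117850239 had 5.35, 8.68, 5.31 and 11.8 CPM in AI2.2-A libraries, 12.4, 16 and 9.55 CPM in CTB P6B8 libraries, 18, 13.8, 12.5 and 14.1 CPM in MTS P5D6 libraries, and 8.98, 8.1, 7.63 and 7.55 CPM in Control libraries. MTS P5D6 and CTB P6B8 libraries lay above Control, and AI2.2-A libraries on both sides of it. It rose by 0.86 ± 0.22 beside MTS P5D6, and AI2.2-A was lower than MTS P5D6 (-0.91 ± 0.22). Its CTB P6B8 call (0.64 ± 0.24) was lost without CTB P6B8 replicates 1 or 2 or Control replicates 2, 3 or 4 (0.44 to 0.65). The other GVI gene, LOC117858538, reached at most 2.15 CPM in any library and rose beside CTB P6B8 (0.95 ± 0.28).

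**Figure D4:**
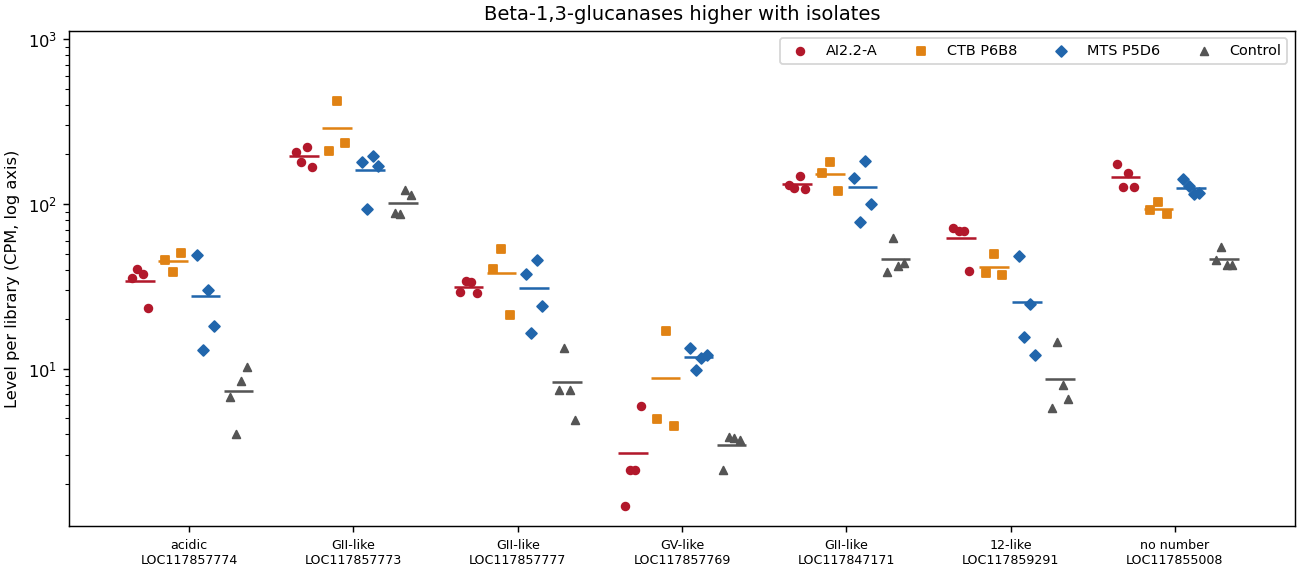
Level of 7 beta-1,3-glucanases in each library (CPM, log axis), 1 point per library and a line at each group mean. The acidic isoform-like gene, GII-like LOC117857777 and LOC117847171 and the unnumbered LOC117855008 have all isolate libraries above Control, and the GV-like gene LOC117857769 has MTS P5D6 at 9.89 to 13.4 CPM, above AI2.2-A and Control.

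A neighbouring pair held the largest glucanase increase beside AI2.2-A. Glucosidase 12-like (LOC117859291) had 71.6, 68.4, 68.4 and 39 CPM in AI2.2-A libraries, 38, 50.0 and 37.1 CPM in CTB P6B8 libraries, 48.7, 15.6, 24.7 and 12.1 CPM in MTS P5D6 libraries, and 5.8, 14.5, 8.02 and 6.57 CPM in Control libraries. AI2.2-A replicate 4 was the lowest of its group, and MTS P5D6 replicate 4 lay below the highest Control library. It rose by 2.82 ± 0.38 beside AI2.2-A, 2.24 ± 0.39 beside CTB P6B8 and 1.53 ± 0.38 beside MTS P5D6. Without MTS P5D6 replicate 1 the MTS P5D6 change was 0.998. Its neighbour LOC117855008, a glucosidase with no number in its name, had 174, 127, 154 and 127 CPM in AI2.2-A libraries, 92.6, 103 and 86.4 CPM in CTB P6B8 libraries, 141, 129, 114 and 116 CPM in MTS P5D6 libraries, and 45.8, 54.6, 42.7 and 42.6 CPM in Control libraries. All isolate libraries lay above Control, with 1.65 ± 0.11 beside AI2.2-A, 1.01 ± 0.12 beside CTB P6B8 and 1.43 ± 0.11 beside MTS P5D6. AI2.2-A was above CTB P6B8 (0.63 ± 0.12).

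Another neighbouring pair, both 13-like, was raised beside AI2.2-A. LOC117855578 had 9.78, 11.1, 10.3 and 7.39 CPM in AI2.2-A libraries, 4.75, 3.4 and 3.48 CPM in CTB P6B8 libraries, 4.71, 3.42, 3.66 and 1.97 CPM in MTS P5D6 libraries, and 2.77, 3.04, 2.21 and 1.86 CPM in Control libraries. AI2.2-A libraries lay above all others. The gene rose by 1.96 ± 0.23 beside AI2.2-A, which was above CTB P6B8 (1.31 ± 0.23) and above MTS P5D6 (1.48 ± 0.22). Its CTB P6B8 call against Control (0.65 ± 0.25) was lost without CTB P6B8 replicate 1 or Control replicates 1, 3 or 4 (0.48 to 0.70). Its MTS P5D6 change (0.48 ± 0.24) was not called.

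The neighbour LOC117855576 had 58, 29.3, 39.6 and 30.8 CPM in AI2.2-A libraries, 31.7, 49.1 and 30.3 CPM in CTB P6B8 libraries, 20.9, 23.2, 17.2 and 19.4 CPM in MTS P5D6 libraries, and 12, 20.9, 21.5 and 19.6 CPM in Control libraries. AI2.2-A and CTB P6B8 libraries lay above all Control libraries, and the MTS P5D6 libraries overlapped them. It rose by 1.09 ± 0.22 beside AI2.2-A and 0.99 ± 0.24 beside CTB P6B8. AI2.2-A was above MTS P5D6 (0.97 ± 0.22). CTB P6B8 was above MTS P5D6 (0.87 ± 0.23), a call lost without CTB P6B8 replicate 2 (0.62).

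Glucosidase 8-like (LOC117834998) had 2.75, 3.63, 3.38 and 2.93 CPM in AI2.2-A libraries, 3.18, 4.72 and 2.74 CPM in CTB P6B8 libraries, 5.48, 4.89, 5.26 and 5.8 CPM in MTS P5D6 libraries, and 1.82, 2.01, 1.98 and 1.29 CPM in Control libraries. The isolate libraries lay above Control, with 0.84 ± 0.19 beside AI2.2-A, 0.99 ± 0.21 beside CTB P6B8 and 1.6 ± 0.19 beside MTS P5D6. AI2.2-A was lower than MTS P5D6 (-0.76 ± 0.17). The unnumbered glucosidase LOC117833332 had 45.6, 46.5, 50.1 and 47.8 CPM in AI2.2-A libraries, 57.7, 59.9 and 50.2 CPM in CTB P6B8 libraries, 68.5, 46.1, 61.7 and 68.8 CPM in MTS P5D6 libraries, and 35.4, 40.9, 38.9 and 37.7 CPM in Control libraries. It rose by 0.31 ± 0.10 beside AI2.2-A, 0.55 ± 0.11 beside CTB P6B8 and 0.68 ± 0.10 beside MTS P5D6. Its AI2.2-A call was lost without AI2.2-A replicate 3 or Control replicates 1 or 4 (0.28 to 0.30). Gene A6 (LOC117843386), known in Arabidopsis and rapeseed for its expression in anthers, had 13.8 to 21.4 CPM in AI2.2-A libraries, 14.8 to 16.8 CPM in CTB P6B8 libraries, 12 to 15 CPM in MTS P5D6 libraries and 11.2 to 13.6 CPM in Control libraries. It was called higher beside AI2.2-A, with a fitted log2 fold change of 0.55, but not beside CTB P6B8 (0.32) or MTS P5D6 (0.09). AI2.2-A was also above MTS P5D6 for this gene (0.455). Here 5 pollen and anther markers summed to 1.3 to 1.8 CPM in AI2.2-A libraries, 1.43 to 1.74 CPM in CTB P6B8 libraries, 1.26 to 1.44 CPM in MTS P5D6 libraries and 0.982 to 2.36 CPM in Control libraries.

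Among the 72 tested members, the calls lower than Control in edgeR's test were of numbered or unnumbered glucanases and of chitinase-like protein 1. Glucosidase 14-like (LOC117848166) had 21.2, 22.3, 20.0 and 17.7 CPM in AI2.2-A libraries, 22.1, 21 and 20.6 CPM in CTB P6B8 libraries, 18.5, 16.2, 19.8 and 21.9 CPM in MTS P5D6 libraries, and 29, 28.3, 30.8 and 30.0 CPM in Control libraries. All isolate libraries lay below Control, with -0.54 ± 0.09 beside AI2.2-A, -0.48 ± 0.10 beside CTB P6B8 and -0.63 ± 0.09 beside MTS P5D6. Another 14-like gene (LOC117862506) had 1.52, 1.79, 2.91 and 2.02 CPM in AI2.2-A libraries, 1.79, 2.65 and 2.51 CPM in CTB P6B8 libraries, 3.23, 1.96, 2.32 and 2.34 CPM in MTS P5D6 libraries, and 4.59, 4.95, 4.2 and 4.81 CPM in Control libraries. It too lay below Control in all isolate libraries, with -1.18 ± 0.21 beside AI2.2-A, -1.01 ± 0.22 beside CTB P6B8 and -0.91 ± 0.20 beside MTS P5D6.

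Glucosidase 13 (LOC117857694) had 20.6, 19.8, 20.9 and 18.9 CPM in AI2.2-A libraries, 22.2, 17.6 and 22.9 CPM in CTB P6B8 libraries, 15.7, 12.9, 12.3 and 14.4 CPM in MTS P5D6 libraries, and 29.4, 22, 23.6 and 24.2 CPM in Control libraries. The MTS P5D6 libraries lay below all others. Its MTS P5D6 change was -0.84 ± 0.11, and MTS P5D6 was exceeded by AI2.2-A (0.54 ± 0.11) and by CTB P6B8 (0.60 ± 0.12). Its AI2.2-A call (-0.31 ± 0.11) was lost with total counts only, with no count filter and without AI2.2-A replicates 2 or 4 or Control replicate 1 (-0.18 to -0.30).

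Glucosidase 8-like (LOC117845553) had 13.8, 16.3, 12.7 and 12.6 CPM in AI2.2-A libraries, 20.1, 20.6 and 18.5 CPM in CTB P6B8 libraries, 17.3, 13.6, 13.7 and 16.6 CPM in MTS P5D6 libraries, and 23.1, 20.9, 20.2 and 18.7 CPM in Control libraries. AI2.2-A and MTS P5D6 libraries lay below Control, with -0.58 ± 0.11 beside AI2.2-A and -0.44 ± 0.11 beside MTS P5D6. Glucosidase 4-like (LOC117843514) fell by a small amount beside AI2.2-A (-0.31 ± 0.08). It had 69.5, 62.2, 74.6 and 70.6 CPM in AI2.2-A libraries, against 77.3, 82.9, 89.5 and 93 CPM in Control libraries, and with total counts only the call was lost (-0.18). Glucosidase 5-like (LOC117862191) fell beside CTB P6B8 (-0.71 ± 0.19), a call lost without CTB P6B8 replicate 3 (-0.53).

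AI2.2-A and CTB P6B8 differed in few members. Between them 10.4% of all genes were called, 4.53% higher and 5.86% lower with AI2.2-A. In edgeR's test 0 chitinases were higher and 2 lower with AI2.2-A. At an unadjusted p under 0.05, 1 was higher and 5 lower, and DESeq2 called 0 higher and 1 lower. The 2 were the CLP-like gene LOC117855198 and the acidic endochitinase-like gene LOC117858398 (-0.98 ± 0.28). The second call was lost without any one AI2.2-A replicate or without CTB P6B8 replicates 1 or 3 (-0.62 to -1.08), and with no count filter, with DESeq2 or with only those groups fitted (-0.98 to -0.99).

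Of the glucanases, 2 were higher and 5 lower with AI2.2-A than with CTB P6B8. The 2 were LOC117855578 and LOC117855008, given above. Among the 5, LOC117857769, LOC117858205 (-0.60 ± 0.16), LOC117845553 (-0.51 ± 0.11) and LOC117844838 (-0.43 ± 0.12) were no longer called without CTB P6B8 replicate 2, at -0.63, -0.31, -0.48 and -0.27. LOC117858205 also lost its call without AI2.2-A replicates 1 (-0.57) or 3 (-0.54), and LOC117844838 without AI2.2-A replicates 1, 3 or 4 (-0.36 to -0.45). Without CTB P6B8 replicate 2, 2 glucanases in place of 7 and 644 genes in place of 2110 were called.

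The GV-like glucanase LOC117857769 had 1.48, 2.43, 2.45 and 5.95 CPM in AI2.2-A libraries, 4.97, 17 and 4.48 CPM in CTB P6B8 libraries, 13.4, 9.89, 11.6 and 12.1 CPM in MTS P5D6 libraries, and 2.43, 3.86, 3.82 and 3.72 CPM in Control libraries. MTS P5D6 libraries lay above all AI2.2-A and Control libraries. The change was 1.76 ± 0.41 beside MTS P5D6, and AI2.2-A was below MTS P5D6 (-1.94 ± 0.41). CTB P6B8 replicate 2 lay far above the other libraries of its group. The CTB P6B8 change (1.32 ± 0.44) was 0.44 without it and was not called, and the call was also lost without Control replicate 1 (1.19). The difference of AI2.2-A from CTB P6B8 (-1.5 ± 0.43) was also lost without AI2.2-A replicates 1, 2 or 3 (-1.26 to -1.41).

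The 14-like glucanase LOC117858205 had 45.7, 49.9, 42.3 and 57.7 CPM in AI2.2-A libraries, 61.3, 101 and 60.2 CPM in CTB P6B8 libraries, 110.5, 106, 81.1 and 97.8 CPM in MTS P5D6 libraries, and 53.9, 51.2, 48.6 and 44 CPM in Control libraries. MTS P5D6 libraries again lay above all AI2.2-A and Control libraries. It rose by 1.0 ± 0.15 beside MTS P5D6 and was lower with AI2.2-A than with MTS P5D6 (-1.02 ± 0.15). Its CTB P6B8 change (0.59 ± 0.16) was 0.30 and not called without CTB P6B8 replicate 2.

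Between AI2.2-A and MTS P5D6, 45.2% of all genes were called, 23.8% higher and 21.4% lower with AI2.2-A. Of the chitinases, 6 were higher and 3 lower, and of the glucanases 17 were higher and 10 lower. The lower chitinases were the CLP-like gene, chitinase 2-like LOC117866657 and chitinase 6-like LOC117860912 (-0.75 ± 0.28). The call of the 6-like gene was lost with total counts only and without AI2.2-A replicates 1 or 4 or MTS P5D6 replicates 1, 3 or 4 (-0.50 to -0.78). Among the higher ones, endochitinase A-like LOC117863103 (0.63 ± 0.20) lost its call without AI2.2-A replicate 1 or MTS P5D6 replicates 2 or 4 (0.49 to 0.56). Chitinase 11-like LOC117839001 (0.97 ± 0.33) lost it without AI2.2-A replicate 1 or MTS P5D6 replicates 2 or 4 (0.70 to 0.88). Chitinase-like protein 1 (LOC117843843) was higher by 0.29 ± 0.08. Without AI2.2-A replicate 1, 5 chitinases were called in place of 9.

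Glucosidase 3 (LOC117839986) had 9.14, 9.18, 7.86 and 5.9 CPM in AI2.2-A libraries, 7.7, 5.24 and 6.88 CPM in CTB P6B8 libraries, 3.62, 4.46, 3.56 and 3.21 CPM in MTS P5D6 libraries, and 5.74, 5.16, 6.03 and 5.58 CPM in Control libraries. MTS P5D6 libraries lay below all others. It was called higher beside AI2.2-A (0.52 ± 0.16) and lower beside MTS P5D6 (-0.60 ± 0.17), and AI2.2-A exceeded MTS P5D6 by 1.11 ± 0.16. The unnumbered glucosidase LOC117858817 had 4.35, 4.77, 3.95 and 3.07 CPM in AI2.2-A libraries, 3.31, 3.46 and 4.06 CPM in CTB P6B8 libraries, 2.03, 1.63, 2.06 and 1.73 CPM in MTS P5D6 libraries, and 2.7, 4.02, 2.67 and 3.31 CPM in Control libraries. MTS P5D6 libraries were again below all others. It fell beside MTS P5D6 (-0.78 ± 0.19) and was higher with AI2.2-A than with MTS P5D6 (1.11 ± 0.18). Among other unnumbered genes, LOC117848537 had at most 2.07 CPM in any library and was higher with AI2.2-A than with MTS P5D6 (0.84 ± 0.24). LOC117862578 was higher with AI2.2-A than with MTS P5D6 by 0.46 ± 0.15, a call lost without AI2.2-A replicates 1 or 2 (0.36 and 0.35).

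Between CTB P6B8 and MTS P5D6, 26.3% of all genes were called, 15.2% higher and 11.1% lower with CTB P6B8. In edgeR's test 5 chitinases were higher and 0 lower. At an unadjusted p under 0.05, 7 were higher and 2 lower, and DESeq2 called 5 higher and 2 lower. Of the 5, 4 stood in the endochitinase block: LOC117863103 (0.96 ± 0.21), LOC117863108, LOC117865011 and LOC117862464 (0.78 ± 0.21). The call of LOC117862464 was lost without CTB P6B8 replicate 2 (0.47). The other was chitinase 11-like LOC117839001 (1.07 ± 0.36), which lost its call without any one CTB P6B8 replicate or without MTS P5D6 replicates 2 or 4 (0.80 to 1.18).

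Of the glucanases, 15 were higher and 3 lower with CTB P6B8 than with MTS P5D6. Among the higher were glucosidase 3 (LOC117839986), by 0.84 ± 0.17, LOC117858817, by 0.95 ± 0.19, and glucosidase 13 (LOC117857694), given above. Glucosidase 7 (LOC117840720) was higher by 0.61 ± 0.12, with 37.3, 49.4 and 42.7 CPM in CTB P6B8 libraries, against 32.8, 25.6, 25.3 and 29 CPM in MTS P5D6 libraries. The 3 lower were LOC117834998 (-0.61 ± 0.19), LOC117855008 (-0.41 ± 0.12) and LOC117843514 (-0.23 ± 0.08). Each of these 3 calls was lost without CTB P6B8 replicate 1 (-0.54, -0.41 and -0.23), CTB P6B8 replicate 3 (-0.44, -0.35 and -0.24) or MTS P5D6 replicate 1 (-0.596, -0.35 and -0.21).

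**Figure D5:**
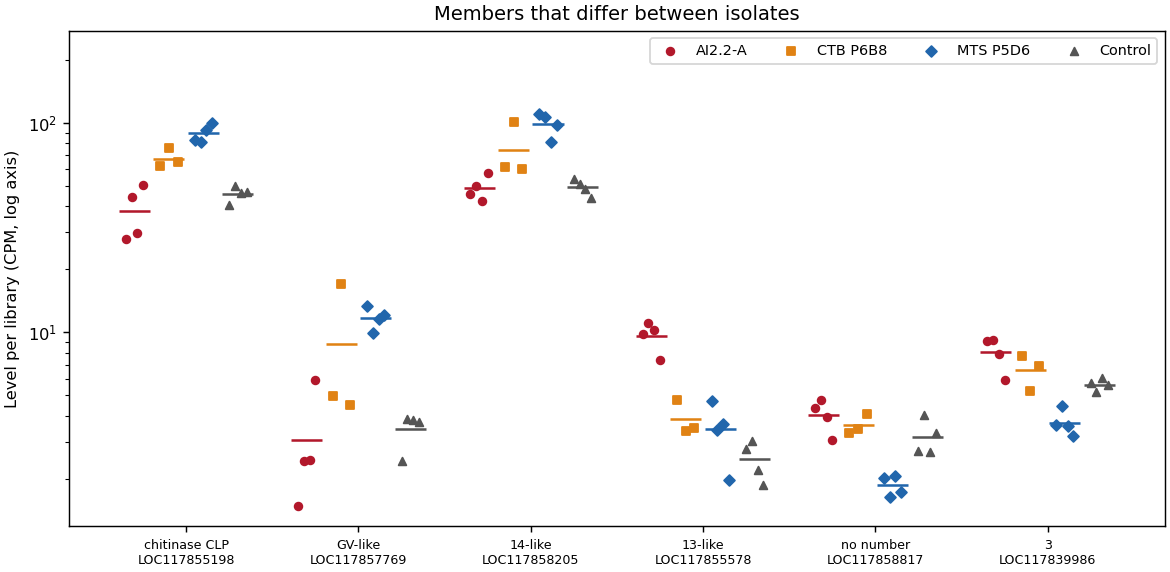
Level of 6 members that differed between isolates, in each library (CPM, log axis), with 1 point per library and a line at each group mean. The CLP-like gene LOC117855198, the GV-like LOC117857769 and the 14-like LOC117858205 are lower with AI2.2-A than with MTS P5D6, and the 13-like LOC117855578, LOC117858817 and glucosidase 3 are higher with AI2.2-A.

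Other genes of chitin and beta-1,3-glucan biology were read from the same fit, and their counts stand against the shares of all genes called higher (23.4% beside AI2.2-A, 22.6% beside CTB P6B8, 23.9% beside MTS P5D6) or lower (24.3% beside AI2.2-A, 22.7% beside CTB P6B8, 28.3% beside MTS P5D6). Barwin-like proteins, of the PR-4 family, bind chitin. The name pattern for PR-4 gave 4 genes, of which 2 were barwin-like. The other 2 were ethylene-responsive transcription factors named WIN1-like, which are not PR-4 proteins. The 2 barwin-like genes rose beside each isolate, and the 2 WIN1-like genes fell beside MTS P5D6. LOC117833792 rose by 2.96 ± 0.34 beside AI2.2-A, 3.22 ± 0.35 beside CTB P6B8 and 2.45 ± 0.34 beside MTS P5D6. LOC117833650 rose by 1.95 ± 0.23 beside AI2.2-A, 2.50 ± 0.25 beside CTB P6B8 and 2.29 ± 0.24 beside MTS P5D6. Of 12 tested genes under PR-1 names, a list that took in a PR-4-like and a thaumatin-like gene, 9 (75%) rose beside each isolate and 1 fell beside MTS P5D6. Of 22 thaumatin-like genes, 10 (45.5%) beside AI2.2-A, 9 (40.9%) beside CTB P6B8 and 8 (36.4%) beside MTS P5D6 rose. Over the other scalings, filters, tests and left-out libraries, 6 to 12, 7 to 12 and 6 to 9 rose, in the same order. The 5 that fell beside MTS P5D6 (22.7%) were near the 28.3% of all genes. Of 8 xylanase inhibitors, relatives of chitinases in cereals, 4 (50%) beside AI2.2-A, 4 (50%) beside CTB P6B8 and 6 (75%) beside MTS P5D6 rose, and 2 (25%) fell beside AI2.2-A. Among them LOC117866477 was lower with AI2.2-A than with MTS P5D6 (-0.91 ± 0.12).

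Of 11 genes with chitin elicitor or LysM names, 3 (27.3%) beside AI2.2-A, 3 (27.3%) beside CTB P6B8 and 4 (36.4%) beside MTS P5D6 rose and 1 (9.09%) beside AI2.2-A, 2 (18.2%) beside CTB P6B8 and 4 (36.4%) beside MTS P5D6 fell. Each count lay within 2 genes of what the share of all genes gives, so the list as a whole did not stand apart, and the values that follow are of single genes. The LysM receptor-like kinase 4 gene LOC117866560 rose by 1.26 ± 0.23 beside AI2.2-A, 1.46 ± 0.24 beside CTB P6B8 and 1.71 ± 0.23 beside MTS P5D6. The chitin elicitor-binding protein gene LOC117842535, whose rice namesake binds chitin fragments at the cell surface, rose beside AI2.2-A (0.69 ± 0.18) and fell beside MTS P5D6 (-1.58 ± 0.22). AI2.2-A exceeded MTS P5D6 by 2.27 ± 0.21 for this gene. The chitin elicitor receptor kinase 1-like gene LOC117860082, whose rice and Arabidopsis namesakes pass on the chitin signal, rose beside MTS P5D6 (0.76 ± 0.13). AI2.2-A was lower than MTS P5D6 for it (-0.58 ± 0.13). Its CTB P6B8 call (0.38 ± 0.14) was lost without CTB P6B8 replicates 1 or 2 or Control replicates 1 or 2 (0.30 to 0.39).

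Callose synthases make the plant's own beta-1,3-glucan. Of 10 tested, 2 rose beside AI2.2-A and 2 beside MTS P5D6, while 2 (20%) beside AI2.2-A, 6 (60%) beside CTB P6B8 and 6 (60%) beside MTS P5D6 fell. Over the other scalings, filters, tests and left-out libraries, 0 to 3, 3 to 6 and 5 to 7 fell, in the same order. Only 3 were called beside CTB P6B8 without CTB P6B8 replicate 3. Callose synthase 3-like (LOC117852184) fell beside MTS P5D6 (-0.99 ± 0.12) and was higher with AI2.2-A than with MTS P5D6 (1.30 ± 0.11). Of 9 callose-binding proteins, 3 (33.3%) beside AI2.2-A, 2 (22.2%) beside CTB P6B8 and 1 (11.1%) beside MTS P5D6 rose and 1 (11.1%) beside AI2.2-A, 1 (11.1%) beside CTB P6B8 and 4 (44.4%) beside MTS P5D6 fell. Of 5 beta-hexosaminidases, which release N-acetylglucosamine, 2 (40%) beside AI2.2-A, 2 (40%) beside CTB P6B8 and 1 (20%) beside MTS P5D6 rose and 1 (20%) fell beside MTS P5D6. The counts of callose-binding proteins and beta-hexosaminidases also lay within 2 genes of what the share of all genes gives.

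The 10 untested members had at most 17 counts in a library and 15 to 104 counts over all 15. They were 4 of the 5 chitinase CLP-like genes, 3 acidic endochitinases, chitinase 2-like LOC117865136, chitinase 10-like LOC117855164 and glucosidase 11-like LOC117853904. Chitinase 10-like LOC117855164 had 13, 10, 8 and 3 counts in AI2.2-A libraries, 5, 6 and 12 counts in CTB P6B8 libraries, 10, 3, 9 and 2 counts in MTS P5D6 libraries and 0, 2, 0 and 1 counts in Control libraries. MTS P5D6 replicate 4 and Control replicate 2 thus tied at 2 counts. Only after scaling did every isolate library lie above every Control library, with 0.123 CPM against 0.109 CPM for these 2. The gene was not tested here. In the authors' deposited tables its log2 fold change was 2.45 beside AI2.2-A, 2.29 beside CTB P6B8 and 2.24 beside MTS P5D6 (adjusted p = 0.0078 beside AI2.2-A, 0.0206 beside CTB P6B8 and 0.016 beside MTS P5D6). Chitinase 2-like LOC117865136 was at -1.96 beside AI2.2-A in the authors' deposited tables (adjusted p = 0.046), with overlapping libraries. The filter left such genes out of the tests here, which does not show that they did not change.

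In the authors' deposited tables, the log2 fold change had the same sign as here for 71 beside AI2.2-A, 70 beside CTB P6B8 and 71 beside MTS P5D6 of the 72 tested members. At an adjusted p under 0.05 in the authors' deposited tables, 31 beside AI2.2-A, 37 beside CTB P6B8 and 32 beside MTS P5D6 were higher and 7 beside AI2.2-A, 5 beside CTB P6B8 and 11 beside MTS P5D6 lower. Of those in the authors' deposited tables, 37 beside AI2.2-A, 39 beside CTB P6B8 and 40 beside MTS P5D6 were called here in the same direction.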

How the data were processed

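Shoot RNA from 15 Setaria viridis libraries in 4 groups was measured by RNA-seq. The authors deposited raw counts per gene. HISAT2 and featureCounts, FastQC and Trimmomatic, and DESeq2 1.6.3 are listed, per the submitters' processing notes, without saying what each did. For the genome build, annotation, strand setting and reads that match several genes, nothing was stated in the labels or headers. The kit was a stranded total RNA kit, per the labels' protocols. The 6 tables of the authors' comparisons hold, per the file headers, a mean normalized count (a signal averaged over libraries), a log2 fold change, its standard error, the test score (that change over its error), and raw and adjusted p-value columns. In the deposited tables the p-value column repeated the adjusted one in 100% of lines that gave both, so that column was not used.

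From the counts, edgeR 4.0.16 in R 4.3.3 fitted all 15 libraries with TMM scaling, and a quasi-likelihood test was run for each of 6 comparisons over the 20310 genes that passed filterByExpr, with Benjamini-Hochberg adjustment over all of them. Intervals and p-values cover the spread between libraries. Alternatives were other scalings, filters, thresholds and tests (DESeq2 1.42.0, limma 3.58.1), only the 2 groups compared, a replicate block and leaving out each replicate. No pair of the 21 within-group pairs of libraries agreed within sampling noise (chi-square per degree of freedom 2.69 to 21.4).

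Genes described in detail were, per family, the called members with the largest change against Control, those called lower with the smallest p, the most abundant, those called between isolates with the smallest p, and those called with every isolate. This named 35 members, and 16 were added after their values were seen, namely every other tested chitinase and every other tested glucanase with a G-type, acidic or unnumbered name; A6 was also added. The 7 related genes were also chosen after their values were seen. Members and lists were chosen with earlier results of these data known. Of the members, 81 were in the RefSeq gene table of assembly Setaria_viridis_v4.0, used for neighbours only, and 81 had every name entry matching the rule. Gene lengths and sequences were not analysed here, so levels were not compared between genes.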

Additional observations from a re-analysis of the deposited data

Results flagged for a closer look

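In 153 groups of 4 libraries (51 members described), 6 held a library whose gap to the nearest other exceeded Dixon's 95% critical value, and chance flags about 1 group in 20. Control replicate 2 was such a library for 3 genes. Chitinase 11-like LOC117839001 stood there at 4.62 CPM, against 1.86 to 1.91 CPM in the other Control libraries. Acidic endochitinase-like LOC117854950 stood there at 58.9 CPM, against 30.0 to 32.5 CPM. Endochitinase B-like LOC117865012 stood there at 2.88 CPM, against 1.29 to 1.35 CPM. Control replicate 1 was low for GV-like LOC117857769, at 2.43 CPM, against 3.72 to 3.86 CPM in the others. AI2.2-A replicate 4 was low for 12-like LOC117859291, at 39 CPM, against 68.4 to 71.6 CPM. MTS P5D6 replicate 2 was low for 4-like LOC117843514, at 80.2 CPM, against 94.3 to 95 CPM.

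Glucosidase 3 LOC117839986 was called higher beside AI2.2-A and lower beside MTS P5D6, and the 2 isolates differed by 1.11 on the log2 scale in edgeR's test of that difference.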

How the results depend on the processing

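Against Control, chitinases called higher numbered 16 to 19 beside AI2.2-A, 17 to 21 beside CTB P6B8 and 16 to 19 beside MTS P5D6 over the other scalings, filters, tests, replicate blocks and left-out libraries. Glucanases called higher numbered 13 to 18 beside AI2.2-A, 13 to 21 beside CTB P6B8 and 12 to 15 beside MTS P5D6, and those called lower 4 to 8 beside AI2.2-A, 2 to 4 beside CTB P6B8 and 9 to 11 beside MTS P5D6. No value reversed in direction. Of the values of called genes under those settings, 2685 kept their call and 183 lost it. Leaving out 1 replicate gave 644 to 2464 genes, 1 to 3 chitinases and 2 to 9 glucanases for AI2.2-A against CTB P6B8, 5 to 11 chitinases for AI2.2-A against MTS P5D6, and 3345 to 4775 genes, 3 to 5 chitinases and 11 to 15 glucanases for CTB P6B8 against MTS P5D6. The libraries whose absence moved a count of all genes by over 1.5 times were AI2.2-A replicates 1 (1020) and 3 (1282) and CTB P6B8 replicate 2 (644) for AI2.2-A against CTB P6B8, and CTB P6B8 replicate 3 (3345) for CTB P6B8 against MTS P5D6. Glucanases then numbered 4, 3 and 2 without those 3 libraries in the first comparison, and chitinases 1 without any one AI2.2-A replicate. For CTB P6B8 against MTS P5D6, 3 chitinases were called without CTB P6B8 replicate 1 or 2, and 11 glucanases without replicate 1. For AI2.2-A against MTS P5D6, 5 chitinases were called without AI2.2-A replicate 1. The cause was not tested. Alternatives for the related lists, the 7 related genes and the members beyond the naming rule were chosen after seeing the data.

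Requiring at least 2-fold left 2143, 2206 and 2806 genes and 8, 8 and 8 glucanases against Control (beside AI2.2-A, beside CTB P6B8, beside MTS P5D6). For AI2.2-A against CTB P6B8 it left 393 genes, 0 chitinases and 2 glucanases, for AI2.2-A against MTS P5D6 2111 genes, 2 chitinases and 9 glucanases, and for CTB P6B8 against MTS P5D6 1097 genes, 2 chitinases and 1 glucanase. An adjusted p under 0.01 left 15 glucanases for CTB P6B8 against Control, 489 genes, 1 chitinase and 2 glucanases for AI2.2-A against CTB P6B8, 3 chitinases for AI2.2-A against MTS P5D6, and 2574 genes, 2 chitinases and 5 glucanases for CTB P6B8 against MTS P5D6. Fitting only the 2 groups gave 871 genes, 1 chitinase and 3 glucanases for AI2.2-A against CTB P6B8, and 11 glucanases for CTB P6B8 against MTS P5D6. With no count filter, and with DESeq2, 1 chitinase was called for AI2.2-A against CTB P6B8. Scaling by total counts alone made 67.1% of calls higher for AI2.2-A against MTS P5D6, in place of 52.6%, and 72.7% for CTB P6B8 against MTS P5D6, in place of 57.9%.

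The labels mention no pairing of libraries with the same replicate number, and the counts showed little sign of it. Of 21 such pairs, 1 had a correlation of deviations over 0.1 (range -0.153 to 0.142). Low correlations cannot show whether the libraries were paired by design. With the number as a replicate block, 16 chitinases were called beside AI2.2-A, 17 beside CTB P6B8 and 17 beside MTS P5D6, and 1 for AI2.2-A against CTB P6B8. That block moved no other count of either family by over 1.5 times, and the AI2.2-A call of chitinase 10-like LOC117847079 was lost with it. The names of 2 MTS P5D6 count columns carry the numbers 4 and 5, where their titles give replicates 3 and 4, and which is right is not stated. With the column numbers, 1 of 18 pairs had a correlation over 0.1. A replicate block on those numbers, added after seeing the data, called 1 chitinase for AI2.2-A against CTB P6B8, 4 chitinases for AI2.2-A against MTS P5D6, and 2786 genes, 3 chitinases and 10 glucanases for CTB P6B8 against MTS P5D6. The 10 untested members and the members tested through isolate libraries alone have few counts, which limits what the test can call.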
